A study of Rattus norvegicus with 6 samples.

Results

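Among the transcripts of rat brain microvascular endothelial cells (rBMECs) there are some that are best known from neurons. Described here are 7 of them, Cpe, Nsg1, Prss12, Ncam2, Nrcam, Fxyd6 and Tubb3, out of the 33566 genes in the deposited count table. They were picked by name because levels had been seen to be higher after homocysteine (Hcy) in these same libraries. Their levels in treated and untreated cells are therefore a description. No p-value is given for them, and where they are said to be called, this records how they stand in the comparison of all genes and is no independent test. All 7 reached the minimum of 10 counts summed over the libraries, as did 14603 genes in all.

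The libraries came from primary cells of the cerebral cortex of Sprague-Dawley (SD) rats 18 to 22 days old, purified in culture and used after 1 passage. One group of 3 libraries (Hcy) received homocysteine, a sulfur-containing amino acid that does not enter proteins, for 24 h. The other group of 3 (Veh) received the water it was dissolved in. The labels give 100 μM Hcy for the treatment and 50 μM for the prepared solution. Polyadenylated RNA was sequenced. The labels of single libraries do not say whether they came from separate cultures, so the spread between libraries may be technical. Cultures of this kind can keep other cells of the vessel wall, and the number of cells expressing a gene cannot be told apart from the amount of RNA per cell in such bulk libraries.

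Total counts lay between 14024997 and 16764584 per library, and 3 counts, taken as the floor for a library, corresponded to 0.178 to 0.215 CPM. CPM are counts scaled to library size, here with edgeR's TMM factors, and values per kilobase (kb) were divided by the deposited gene length so that genes could be set beside each other. Among endothelial markers, Vwf, Cdh5, Eng and Tie1 had the highest CPM before division by length. Their group means ran from 1051 CPM (Eng in Hcy) to 2934 CPM (Vwf in Hcy). Per kb, Emcn was the highest of these markers, at 549 CPM per kb in Hcy and 503 in Veh. Cldn5 was at 0 counts in every library. Over the whole table, 71 of 14603 genes were called, or 0.486%. A call needed an adjusted p no larger than 0.05 in edgeR's quasi-likelihood test together with a log2 fold change of 1 or more in size, and the adjusted p alone was met by 2.34% of tested genes.

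Each of these genes has a role in the membrane traffic, surface or skeleton of neurons. Carboxypeptidase E (Cpe) trims basic residues from the ends of prohormone fragments inside secretory granules, and Nsg1 is a small endosomal membrane protein that takes part in receptor recycling at synapses. Prss12, or neurotrypsin, is a secreted serine protease that cuts agrin. Ncam2 and Nrcam are cell adhesion molecules of the immunoglobulin superfamily that act in axon growth and guidance. Fxyd6 is a small membrane protein that regulates the sodium-potassium pump, and Tubb3 is the beta-tubulin used as a marker of neurons.

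The label of the group, genes of neuronal type that rise with Hcy, held only in part. Cpe, Nsg1, Fxyd6, Prss12 and Ncam2 were called higher in Hcy, 5 of 7, where 0.253% of all tested genes were called higher and 0.233% lower. For 6 of 7 every Hcy library lay above every Veh library, which was so for 10.8% of all tested genes. These shares are set side by side only as a record, since the genes were picked for this difference. Nrcam was not called, although its groups did not overlap, and the groups of Tubb3 overlapped. The called member with the smallest log2 fold change, Nsg1, stood at 1.07. Nrcam, at 1.01, also met the fold threshold, and it was the adjusted p that kept it from being called. Defining transcripts of neurons were largely missing from the counts. Of 24 neuron markers, 10 had 0 counts in every library, among them Snap25, Syp, Rbfox3, Nefl and Gad2.

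The upstream sequences are shown because Cpe, Nsg1 and Fxyd6 had the most similar profiles over the 6 libraries and Ncam2 the most divergent one. Those profiles include the difference between groups for which the genes were picked. The RefSeq table of the GRCr8 assembly, in which windows run from 250 bases before to 50 bases after the annotated start, matched 6 of 7 genes. Nrcam had no entry. The window of Cpe was chr16:29796457-29796756, that of Nsg1 chr14:76860829-76861128, that of Fxyd6 chr8:54575575-54575874 and that of Ncam2 chr11:33591573-33591872, each on the plus strand and read 5′ to 3′. Capitals mark matches on either strand to TATAAA (bound by the basal transcription machinery), TGACG (core of the cyclic AMP response element), GGGCGG (the site of Sp1), CCAAT (the site of NF-Y) and TGACTCA (the site of AP-1).
Cpe: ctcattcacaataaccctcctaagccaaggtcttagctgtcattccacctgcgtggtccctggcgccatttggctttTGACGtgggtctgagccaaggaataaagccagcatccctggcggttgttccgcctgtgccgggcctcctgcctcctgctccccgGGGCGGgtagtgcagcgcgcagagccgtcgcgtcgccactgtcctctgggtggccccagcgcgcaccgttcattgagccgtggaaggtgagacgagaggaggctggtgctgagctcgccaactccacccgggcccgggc
Nsg1: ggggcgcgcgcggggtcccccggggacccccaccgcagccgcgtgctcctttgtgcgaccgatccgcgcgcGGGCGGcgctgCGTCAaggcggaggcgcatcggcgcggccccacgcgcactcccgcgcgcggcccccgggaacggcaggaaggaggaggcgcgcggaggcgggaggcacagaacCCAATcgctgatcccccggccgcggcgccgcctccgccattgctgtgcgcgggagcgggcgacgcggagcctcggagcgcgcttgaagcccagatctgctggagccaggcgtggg
Fxyd6: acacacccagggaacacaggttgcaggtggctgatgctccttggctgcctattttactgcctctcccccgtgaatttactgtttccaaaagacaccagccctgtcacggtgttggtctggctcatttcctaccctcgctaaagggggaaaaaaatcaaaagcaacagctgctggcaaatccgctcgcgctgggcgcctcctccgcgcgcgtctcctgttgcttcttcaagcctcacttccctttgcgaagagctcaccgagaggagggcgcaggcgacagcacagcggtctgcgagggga
Ncam2: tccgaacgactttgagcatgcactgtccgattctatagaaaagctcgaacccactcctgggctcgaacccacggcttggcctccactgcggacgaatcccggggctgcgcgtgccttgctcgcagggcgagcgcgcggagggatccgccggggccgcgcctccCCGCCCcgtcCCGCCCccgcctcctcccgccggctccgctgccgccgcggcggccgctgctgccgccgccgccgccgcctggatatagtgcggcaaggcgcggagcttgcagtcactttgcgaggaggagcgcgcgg

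All 6 windows were richer in G and C than the median of 33465 rat promoters, 51.7%. They ranged from 57.7% in Fxyd6 to 78.3% in Nsg1, with 62.3% in Prss12, 64.7% in Cpe, 67.3% in Tubb3 and 72.7% in Ncam2. The number of CpG dinucleotides in the 300 bases was 51 in Nsg1, 44 in Ncam2, 26 in Tubb3, 22 in Cpe, 19 in Prss12 and 17 in Fxyd6, against a median of 7. The ratio of observed to expected CpG was highest in Ncam2 (1.12) and Nsg1 (1.11) and lowest in Prss12 (0.654), against a median of 0.392 over all promoters. Thus Ncam2, the gene with the lowest level in Veh, and Nsg1, one of the most abundant, had similarly CpG-dense windows.

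GGGCGG occurred in 4 of the 6 windows and in 33.1% of all rat promoters. It began 89 bases before the start of Cpe and 179 bases before that of Nsg1, and occurred at 2 positions each in Ncam2 (-87 and -77, minus strand) and Tubb3 (-142 and -50). TGACG occurred in Cpe (-173) and, on the minus strand, in Nsg1 (-168), 2 of 6 windows, against 21.2% of all promoters. CCAAT was found in Nsg1 (-65) and, on the minus strand, in Tubb3 (-81), 2 of 6 windows, against 37.5% of all. TATAAA and TGACTCA were in none of the 6, and in 14.2% and 4.63% of all promoters. The windows of Fxyd6 and Prss12 held none of the 5 motifs, and the matches did not overlap each other. Such matches are letters in a window and do not show that a factor binds there. Fxyd6, whose profile lay close to those of Cpe and Nsg1, shared none of these motifs with them. Whether the motifs bear on the levels of these genes was not tested.

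Cpe was the most abundant of the genes in both groups. The deposited table lists it at chr16:26906716-27014813 on the plus strand, with a length of 2085 bases, and names no build for its positions, which may belong to an assembly other than mRatBN7.2. In Hcy replicates 1, 2 and 3 the normalised level of Cpe was 858, 796 and 912 CPM. In Veh replicates 1, 2 and 3 it was 435, 378 and 392 CPM. All treated libraries thus lay above all untreated ones, and the lowest Hcy library was 1.83 times the highest Veh library. The means were 855 ± 58.1 CPM in Hcy and 402 ± 29.2 CPM in Veh (SD, n = 3 each), a 2.13-fold difference or a log2 fold change of 1.09 (SE 0.08). Per kb, this enzyme ranked at percentile 96.8 of tested genes already in Veh and at 98.6 in Hcy.

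Within its enzyme family, the level per kb of Cpe made up 93.2% ± 1.60 of the sum of Cpe, Cpd, Cpm and Cpz in Hcy and 86.7% ± 3.42 in Veh (SD, n = 3 each). The other genes of prohormone processing were divided in direction, much as all genes were. Of 23 such genes 11 were tested, 5 of them higher and 6 lower in Hcy, beside 46.9% higher over all tested genes. Their median log2 fold change was -0.07 against -0.02 over all tested genes, and edgeR called none of the 11, beside 0.486% of all. The highest level per kb in Veh among them was that of Pam, the enzyme that amidates peptide ends, with 784 ± 24.2 CPM in Hcy and 725 ± 59.5 CPM in Veh (log2 fold change 0.11, adjusted p = 0.588 in edgeR). Next came Ptprn, a dense-core granule membrane protein, with 183 ± 11.3 and 195 ± 5.17 CPM, and the protease Furin with 194 ± 9.09 and 177 ± 24.8 CPM, both with overlapping groups. The smallest unadjusted p of the list was that of Cpm, a membrane-bound carboxypeptidase, at 0.367 ± 0.209 CPM in Hcy and 0.981 ± 0.409 CPM in Veh (log2 fold change -1.38, adjusted p = 0.323 in edgeR). Pcsk1, Chgb, Pcsk1n and Cadps, genes of the regulated secretory pathway, had 0 counts in every library.

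Transcripts of the listed neuropeptides and neurotrophins were scarce, and other peptide precursors were not examined. Of 15 neuropeptide and neurotrophin genes 7 were tested, 3 higher and 4 lower in Hcy with a median log2 fold change of -0.10, and Crh, Npy and Sst had 0 counts throughout. Penk, the enkephalin precursor, had the highest level per kb of the list in Veh, with 66, 40 and 82 counts in the Hcy libraries and 76, 35 and 62 in the Veh libraries. Gal, the galanin precursor, had 13 to 22 counts in Hcy and 16 to 25 in Veh. Vip had 8 to 22 and 12 to 20 counts. None of the peptide genes was called.

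**Figure D1:**
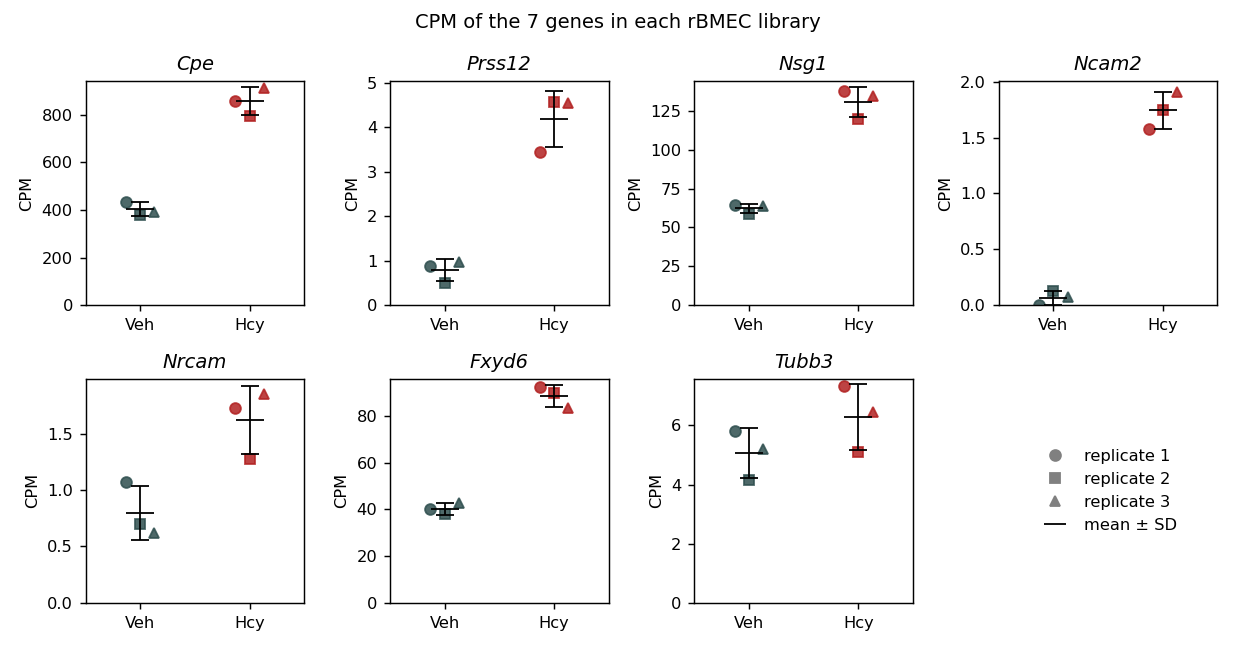
Level of each gene in every library, in CPM on linear axes that start at 0 and differ between panels. Points are single libraries (circle, square and triangle for replicates 1, 2 and 3), and bars give the mean and SD of the 3 libraries of a group. Groups were apart for 6 of 7 genes, and Tubb3 overlapped, with 5.10 to 7.33 CPM in Hcy and 4.14 to 5.82 CPM in Veh.

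Nsg1, the endosomal protein, came after Cpe in level. It is listed at chr14:77380262-77401996 on the plus strand, with a length of 1603 bases. The Hcy libraries held 137, 119.9 and 135 CPM of Nsg1. The Veh libraries held 64.5, 58.7 and 63.5 CPM. The lowest treated library, replicate 2, still lay 1.86 times above the highest untreated one. Mean levels were 131 ± 9.42 CPM in Hcy and 62.2 ± 3.08 CPM in Veh (SD, n = 3 each), a 2.10-fold difference (log2 fold change 1.07, SE 0.08). Its level per kb was at percentile 84.7 of tested genes in Veh and 92.4 in Hcy.

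Nsg1 accounted for 99.9% of the summed level per kb of the NSG family (Nsg1, Nsg2 and Caly) in both groups. Nsg2 had 0.257 ± 0.177 CPM in Hcy and 0.110 ± 0.0987 CPM in Veh, near the floor, and Caly had no counts. Other endosomal sorting and recycling genes were close to even. Tests covered 17 of 19, 7 higher and 10 lower, with a median log2 fold change of -0.03, and edgeR called none of them. App, the amyloid precursor protein, Rab11a, a small GTPase of recycling endosomes, and Vps35, a retromer subunit, had the highest levels per kb of this list in Veh, at 430, 103 and 66.4 CPM per kb. The smallest unadjusted p was that of Ehd1, an ATPase of recycling endosomes, which was at 152 ± 6.01 CPM in Hcy and 179 ± 13.2 CPM in Veh (log2 fold change -0.24, adjusted p = 0.199 in edgeR). The direction of Ehd1 was thus opposite to that of Nsg1, without passing the adjusted threshold. Gria2, an AMPA receptor subunit whose traffic Nsg1 is known to affect, had 1.15 ± 0.551 CPM in Hcy and 0.653 ± 0.155 CPM in Veh, and its groups overlapped.

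Fxyd6, the pump regulator, followed. It is listed at chr8:49676540-49703419 on the plus strand, with a length of 1766 bases. Levels of Fxyd6 were 92.2, 89.8 and 83.3 CPM in the Hcy libraries. In the Veh libraries they were 39.95, 37.8 and 42.8 CPM. The groups were separated by a ratio of 1.95 between the lowest Hcy and the highest Veh library, the widest gap of the abundant genes. Means were 88.4 ± 4.60 CPM and 40.2 ± 2.47 CPM (SD, n = 3 each), a 2.20-fold difference (log2 fold change 1.14, SE 0.08). The percentile of its level per kb was 76.1 in Veh and 87.9 in Hcy.

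Within the FXYD family, Fxyd6 made up 19.5% ± 0.567 of the summed level per kb in Hcy and 9.86% ± 0.822 in Veh (SD, n = 3 each). Most of the rest was Fxyd5, which had 207 ± 7.90 CPM in Hcy and 209 ± 31.5 CPM in Veh (log2 fold change -0.02, adjusted p = 0.967 in edgeR). Fxyd1, Fxyd3 and Fxyd4 had 0 counts. Among the pump subunits, the beta subunit Atp1b3 was at 574 ± 34.5 CPM in Hcy and 483 ± 26.1 CPM in Veh, with groups that did not overlap (log2 fold change 0.25, adjusted p = 0.151 in edgeR). Of 14 FXYD and pump genes other than Fxyd6, 8 were tested, 4 higher and 4 lower with a median log2 fold change of 0.07, and none was called.

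Prss12, the secreted protease, belonged to the scarce genes. It is listed at chr2:227657983-227717884 on the plus strand, with a length of 2499 bases. The Hcy libraries held 48, 68 and 76 counts of Prss12, or 3.45, 4.57 and 4.54 CPM. The Veh libraries held 15, 8 and 14 counts, or 0.890, 0.510 and 0.969 CPM. Every treated library was at least 3.56 times any untreated one. The means of 4.18 ± 0.638 CPM and 0.790 ± 0.246 CPM (SD, n = 3 each) differed 5.30-fold, and the log2 fold change was 2.40 (SE 0.30). In Veh, the level of Prss12 per kb was at percentile 13.3 of tested genes, and in Hcy it was at 28.7.

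Proteases, inhibitors and substrates around neurotrypsin were the list in which most genes passed the adjusted threshold without the fold threshold. Of 14 genes 10 were tested, 8 higher and 2 lower in Hcy, with a median log2 fold change of 0.12 against -0.02 over all tested genes. Serpine2, an inhibitor of serine proteases also called protease nexin, rose from 44.9 ± 1.77 CPM in Veh to 73.6 ± 3.77 CPM in Hcy (log2 fold change 0.71, adjusted p = 0.00235 in edgeR). Htra3, a secreted serine protease, rose from 25.7 ± 3.05 to 38.5 ± 2.72 CPM (log2 fold change 0.59, adjusted p = 0.0283 in edgeR). Plat, the tissue plasminogen activator, rose from 621 ± 35.6 to 814 ± 52.0 CPM (log2 fold change 0.39, adjusted p = 0.0310 in edgeR). These were 3 of 10, where 1.32% of all tested genes were higher at this adjusted p, and none of them reached the fold threshold. Serpine2 kept the adjusted threshold on leaving out any library, Plat only without Veh replicate 3, and Htra3 only without Veh replicate 1 or 3. Agrn, the substrate of neurotrypsin, was at 148 ± 3.26 CPM in Hcy and 114 ± 15.4 CPM in Veh with groups that did not overlap, and did not pass (log2 fold change 0.37, adjusted p = 0.113 in edgeR), although it met the adjusted threshold with DESeq2 and without Veh replicate 3. Htra1, with 1621 CPM per kb in Veh the most abundant of the list, overlapped between groups, whereas Prss23, at 734 CPM per kb in Veh, was higher in each Hcy library (log2 fold change 0.16, adjusted p = 0.284 in edgeR). Klk6, Klk8 and Prss35 had 0 counts in every library.

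Ncam2 was nearly absent from untreated cells. It is listed at chr11:20471764-20705063 on the plus strand, with a length of 5006 bases. The Veh libraries held 0, 2 and 1 counts of Ncam2, all at or under the floor of 3 counts. The Hcy libraries held 22, 26 and 32 counts, or 1.58, 1.75 and 1.91 CPM. The gene was thus above the floor in each Hcy library and in no Veh library. The Hcy mean of 1.75 ± 0.165 CPM (SD, n = 3) was 9.08 times the mean floor of the Veh libraries, 0.192 CPM. The fold over Veh is therefore given as at least 9.08, without counting error of the Hcy libraries. The fitted log2 fold change of 4.60 (SE 0.62) depended on the prior count and is no bound.

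Nrcam, the other adhesion molecule, was also scarce. It is listed at chr6:64297888-64864996 on the plus strand, with a length of 8132 bases. Its counts were 24, 19 and 31 in the Hcy libraries, or 1.72, 1.28 and 1.85 CPM. They were 18, 11 and 9 in the Veh libraries, or 1.07, 0.701 and 0.623 CPM. The lowest Hcy library (replicate 2) was only 1.19 times the highest Veh library (replicate 1), so the groups were apart by a narrow margin. Means were 1.62 ± 0.302 CPM and 0.797 ± 0.238 CPM (SD, n = 3 each), a 2.03-fold difference (log2 fold change 1.01, SE 0.34). Of the 7 listed genes that overlap Nrcam, a pseudogene on the minus strand, AABR07064111.1, was the one with counts. It had 2.50 ± 0.762 CPM in Hcy and 2.70 ± 0.487 CPM in Veh, more than Nrcam itself. Since the sources do not say whether counting used the strand, reads of these overlapping genes cannot be told apart with certainty.

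In their families, Ncam2 and Nrcam took different places. Ncam2 made up 88.7% ± 2.86 of the summed level per kb of Ncam1 and Ncam2 in Hcy and 22.6% ± 19.8 in Veh, the latter from 0 to 2 counts of Ncam2. Ncam1 was at 0.196 ± 0.0548 CPM in Hcy and 0.209 ± 0.0807 CPM in Veh, with overlapping groups. Nrcam made up 95.2% ± 5.13 of the L1 family (Nrcam, L1cam, Nfasc and Chl1) in Hcy and 82.7% ± 8.09 in Veh (SD, n = 3 each). It was therefore the main member of its family in both groups, while Ncam2 was so in Hcy alone.

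Other neural adhesion genes went in both directions. Tests covered 16 of 35, 9 higher and 7 lower, with a median log2 fold change of 0.04, and 10 had 0 counts, among them Nlgn1 and several contactins. Alcam, an immunoglobulin-type adhesion molecule, had the highest level per kb in Veh, with 332 ± 12.1 CPM in Hcy and 381 ± 29.2 CPM in Veh (log2 fold change -0.20, adjusted p = 0.279 in edgeR). Nptn, neuroplastin, was at 252 ± 6.78 and 239 ± 3.01 CPM (log2 fold change 0.07, adjusted p = 0.703 in edgeR). Cadm1, a synaptic adhesion molecule, was at 3.06 ± 0.389 and 5.09 ± 1.24 CPM (log2 fold change -0.73, adjusted p = 0.183 in edgeR). The smallest unadjusted p was that of Ank2, a cytoplasmic adaptor that L1 family proteins bind, at 3.85 ± 0.843 CPM in Hcy and 1.62 ± 0.619 CPM in Veh (log2 fold change 1.24, adjusted p = 0.0983 in edgeR). Groups did not overlap for any of Alcam, Nptn, Cadm1 and Ank2, yet edgeR called none of them.

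Tubb3, the neuron marker, differed least. It is listed at chr19:56220755-56229813 on the plus strand, with a length of 1767 bases. Levels were 7.33, 5.10 and 6.45 CPM in the Hcy libraries. The Veh libraries had 5.82, 4.14 and 5.19 CPM. Hcy replicate 2 lay below Veh replicates 1 and 3, so the groups overlapped. The means of 6.29 ± 1.12 CPM and 5.05 ± 0.847 CPM (SD, n = 3 each) differed 1.25-fold (log2 fold change 0.32, SE 0.20), which is about the spread between libraries of a group.

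Tubb3 was a minor beta-tubulin in these cells. It made up 0.232% ± 0.0356 of the summed level per kb of 8 beta-tubulins in Hcy and 0.190% ± 0.0266 in Veh (SD, n = 3 each). The most abundant tubulins were Tubb5, with 716 CPM per kb in Veh, Tuba1a with 599 and Tuba1b with 449. Tubulin genes are alike in sequence, so the counting may have split or left out reads of near-identical copies. Of 18 tubulin genes other than Tubb3, 16 were tested, 9 higher and 7 lower, with a median log2 fold change of 0.15, and none was called. The smallest unadjusted p was that of Tubb2a, at 65.3 ± 2.26 CPM in Hcy and 97.4 ± 31.5 CPM in Veh (log2 fold change -0.58, adjusted p = 0.200 in edgeR). Tubb5 itself was at 1772 ± 66.7 CPM in Hcy and 1544 ± 133 CPM in Veh, again short of the threshold (log2 fold change 0.20, adjusted p = 0.283 in edgeR).

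Proteins that bind microtubules in neurons were represented by 16 genes, of which 11 were tested, 7 higher and 4 lower with a median log2 fold change of 0.13. Crmp1, which links semaphorin signals to the growth cone skeleton, rose from 7.17 ± 0.529 CPM in Veh to 11.2 ± 0.633 CPM in Hcy (log2 fold change 0.65, adjusted p = 0.0406 in edgeR). It did not reach the fold threshold, and it lost the adjusted threshold with the replicate block and on leaving out any library other than Veh replicate 3. Stmn1, a protein that destabilises microtubules, was at 135 ± 5.43 CPM in Hcy and 88.4 ± 18.3 CPM in Veh, just outside the adjusted threshold (log2 fold change 0.61, adjusted p = 0.0504 in edgeR). It passed that threshold with DESeq2, with either other scaling, with either other count minimum and without Veh replicate 3. The relatives of Crmp1 with higher levels, Dpysl3 (158 ± 20.5 and 144 ± 30.4 CPM) and Dpysl2 (138 ± 15.1 and 113 ± 19.6 CPM), did not pass. Dcx and Map2, classical neuronal microtubule proteins, had 0 counts in every library.

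**Figure D2:**
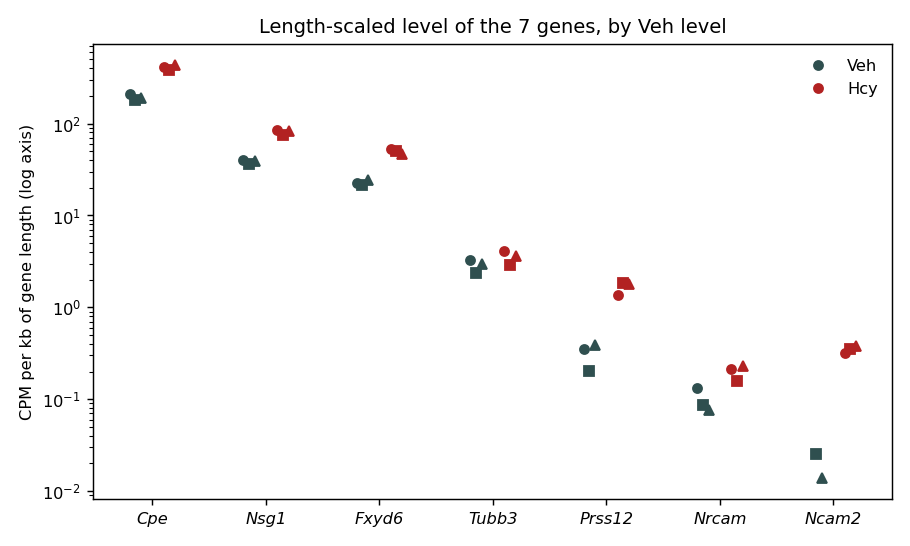
Level of each gene in CPM per kb, on a log10 axis, with 1 point per library (circle, square and triangle for replicates 1, 2 and 3), so that genes can be compared with each other. Ncam2 of Veh replicate 1 had 0 counts and is not drawn. From Cpe, at about 410 CPM per kb in Hcy, to Nrcam, at 0.199, the genes span more than 3 orders of magnitude.

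Per kb, the order of mean levels in Veh was Cpe (193 CPM per kb), Nsg1 (38.8), Fxyd6 (22.8), Tubb3 (2.86), Prss12 (0.316), Nrcam (0.0981) and Ncam2 (0.0131). In Veh no pair of neighbours in this order overlapped in its libraries. In Hcy the order was Cpe (410 CPM per kb), Nsg1 (81.5), Fxyd6 (50.1), Tubb3 (3.56), Prss12 (1.67), Ncam2 (0.349) and Nrcam (0.199). Neighbours did not overlap here either. Ncam2 and Nrcam had thus changed places, with 0.316 to 0.382 CPM per kb for Ncam2 and 0.157 to 0.228 for Nrcam in Hcy.

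How closely the libraries of a group lay together differed between the genes. The coefficient of variation of Cpe was 6.79% in Hcy and 7.28% in Veh, whereas counting error alone gives 0.876% and 1.26% at its depth. Nsg1 (7.21% and 4.95%) and Fxyd6 (5.20% and 6.15%) likewise varied more than counting error, which was 2.24% and 3.20% for Nsg1 and 2.73% and 3.99% for Fxyd6. For these abundant genes the spread was therefore mostly beyond counting. Nrcam (18.7% in Hcy, with 20.1% from counting) and Prss12 (31.1% in Veh, with 28.5% from counting) varied about as much as counting allows. With 3 libraries per group, this cannot show whether variation beyond counting was absent. Tubb3 stood between, with 17.8% in Hcy and 10.2% from counting.

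**Figure D3:**
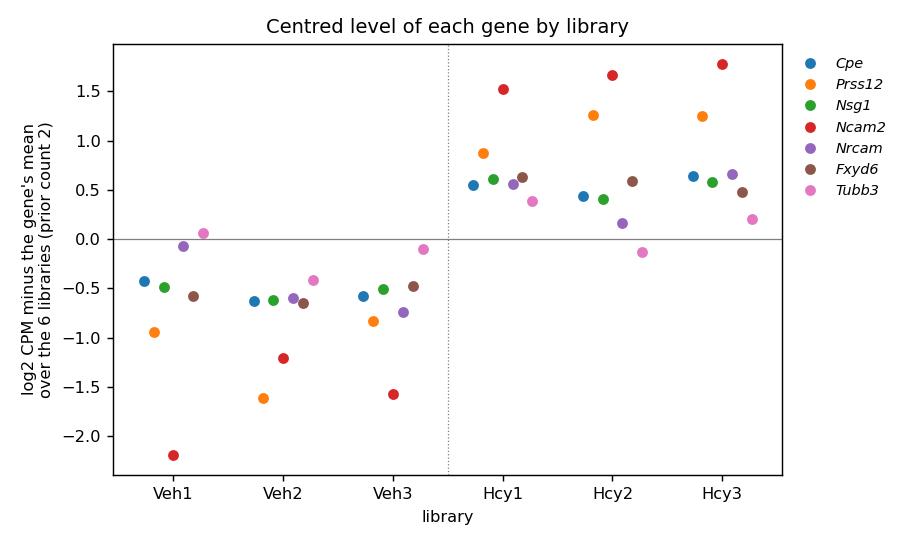
Profile of each gene over the 6 libraries, as log2 CPM with a prior count of 2 minus the mean of the gene over all libraries, 1 point per gene and library. The points of Cpe, Nsg1 and Fxyd6 lie close together in every library, while those of Ncam2 are farthest from 0 in every library except Veh replicate 2, where Prss12 is, and those of Tubb3 are closest to 0.

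Profiles over the 6 libraries were compared as the root mean square difference of centred log2 CPM, a measure in which 0 means identical profiles and which includes the difference between groups. Among the 7 genes the closest pair was Cpe and Nsg1 (0.0514), followed by Nsg1 and Fxyd6 (0.0937) and Cpe and Fxyd6 (0.118). The most distant pair was Ncam2 and Tubb3 (1.57). By this measure Cpe, Nsg1 and Fxyd6 lay close together, and Ncam2, detected almost only in Hcy, stood apart. Their log2 fold changes were 1.09, 1.07 and 1.14, against 4.60 for Ncam2. Since the genes were picked for this difference, the closeness largely restates it and is no separate result.

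Among 12301 other genes with enough counts, the profile nearest to Cpe was that of Ccn3, a matricellular protein (0.0667), then LOC108348233 and Vcam1, the adhesion molecule for leukocytes. Nsg1 was nearest to Ephb1, an ephrin receptor (0.0878), and then also to Ccn3 and Vcam1. Ephb1 headed the list of Fxyd6 as well (0.0484), before Asf1b, a histone chaperone, and Wfdc1. Thus Nsg1 shared nearest genes with both Cpe and Fxyd6. Prss12 was nearest to Sparcl1 (0.272), LOC103690108 and Ifit1, and Ncam2 to Robo3, an axon guidance receptor (0.420), the matrix metalloproteinase Mmp9 and AABR07073045.1. Prss12 and Ncam2 therefore had no profile as near to them as the other genes had. Nrcam was nearest to Prox2 (0.134), Fads2 and Pcdhb9, and Tubb3 to Pgap4 (0.0676), Plekha5 and Irf1. These likenesses rest on 6 libraries and on 1 shared difference between groups.

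Genes that lie next to the 7 in the table were not called. Of 14 tested neighbours, the nearest on each side, edgeR and DESeq2 each called 0. In edgeR 2 of 14 reached 0.05 without adjustment, as did 13.4% of all tested genes, and 1 of 14 with adjustment, against 2.34% of all. This was Tll1, a metalloprotease gene 384653 bases from Cpe, which fell by 0.84 on the log2 scale (10.3 ± 1.85 CPM in Veh, 5.74 ± 0.674 CPM in Hcy, adjusted p = 0.0489 in edgeR). The other neighbour of Cpe, Msmo1, 30742 bases away, was at 106 ± 9.57 CPM in Hcy and 91.6 ± 2.41 CPM in Veh (log2 fold change 0.21, adjusted p = 0.319 in edgeR). Stx18, which ends 956 bases from Nsg1 on the opposite strand, had 30.2 ± 3.27 and 31.4 ± 1.13 CPM (log2 fold change -0.06, adjusted p = 0.868 in edgeR). Fxyd6 lay between Jaml, with 0 to 4 counts per library, and Cep164 (log2 fold change -0.21, adjusted p = 0.530 in edgeR). Tubb3 lay between Tcf25 (0.05, adjusted p = 0.869) and Def8 (-0.23, adjusted p = 0.519), both on the log2 scale in edgeR. The log2 fold changes of Mettl14 (-0.08) and AABR07013208.1 (-0.11) beside Prss12, of Zbtb49 (0.00) on the other side of Nsg1, and of Pnpla8 (-0.10) and Stxbp6 (-0.01) beside Nrcam were small. Ncam2 lay far from any tested gene, 2147176 bases from AABR07033465.1 (0.20) and 3131390 bases from AABR07033324.1 (-0.13), again as log2 fold changes. A count of 0 called among 14 has to be read beside 0.486% called over all genes.

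The regulators of neuronal genes were close to even between the groups. Tests covered 14 of 26, 7 higher and 7 lower, with a median log2 fold change of -0.01, and edgeR called none. Rest, the repressor that silences many neuronal genes outside neurons, was at 27.5 ± 2.06 CPM in Hcy and 31.7 ± 9.59 CPM in Veh with overlapping groups (log2 fold change -0.21, adjusted p = 0.735 in edgeR). Without Veh replicate 3, Rest met the adjusted threshold, lower in Hcy. That library had 20.6 CPM of Rest, against 37.3 and 37.1 CPM in Veh replicates 1 and 2. The partners of Rest, Hdac1, Hdac2 and Ehmt2, had the highest levels per kb of the list in Veh, at 109, 50.5 and 23.7 CPM per kb. The smallest unadjusted p was that of the corepressor Rcor3 (log2 fold change 0.37, adjusted p = 0.537 in edgeR). Proneural factors such as Neurog2 and Neurod1 had 0 counts in every library.

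**Figure D4:**
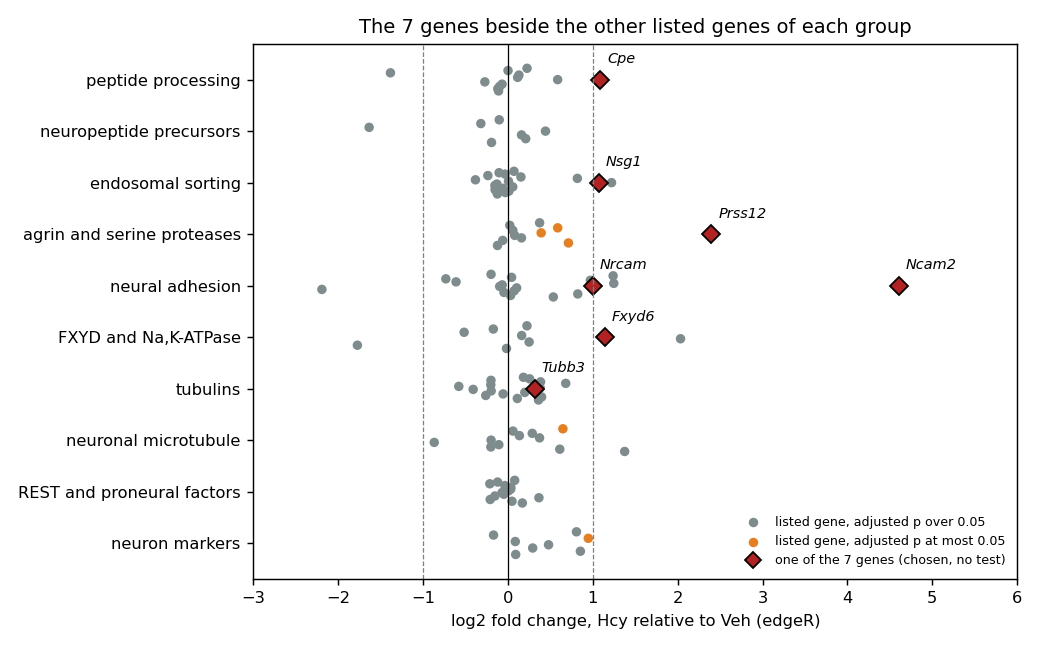
Fitted log2 fold change (Hcy over Veh) of every tested gene of the 10 lists, 1 point per gene, with the 7 genes as red diamonds in the row of their list. Orange points, 5 in all, have an adjusted p of at most 0.05, dashed lines mark a log2 fold change of 1 in either direction, and the value of Ncam2, 4.60, depends on the prior count.

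Over all 10 lists, without the 7 genes themselves, 204 genes were in the table and 118 were tested. They split into 66 higher and 52 lower in Hcy, 55.9% higher against 46.9% of all tested genes, with a median log2 fold change of 0.03 against -0.02. EdgeR called 0 of the 118, against 0.486% of all tested genes, and DESeq2 called 1, Ank2. At an unadjusted p of at most 0.05 there were 27 (22.9%, against 13.4% of all tested genes), 17 higher and 10 lower. With the fold threshold added to the unadjusted p there were 2 higher (1.69%, against 1.49% of all tested genes) and 4 lower (3.39%, against 1.08%), so that lower genes were the more numerous. The adjusted p alone was passed by 5, all higher in Hcy (4.24%, against 1.32% of all genes for this direction): Serpine2, Htra3, Plat, Crmp1 and Rtn1. All Hcy libraries lay above all Veh libraries for 22 (18.6%, against 10.8%).

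Neuron markers are described here because they bear on the name of the group. Of 24 genes 8 were tested, 7 higher and 1 lower in Hcy, with a median log2 fold change of 0.38. Rtn1, a reticulon of the endoplasmic reticulum, rose from 12.4 ± 1.68 CPM in Veh to 24.0 ± 2.65 CPM in Hcy (log2 fold change 0.95, adjusted p = 0.0114 in edgeR). It fell just short of the fold threshold, and lost the adjusted threshold without Hcy replicate 1 or 2. The synaptic vesicle genes Sv2a (15.7 ± 1.12 and 11.2 ± 0.309 CPM, adjusted p = 0.0699 in edgeR) and Syt1 (2.27 ± 0.464 and 1.25 ± 0.151 CPM, adjusted p = 0.195 in edgeR) were higher in each Hcy library without passing. Uchl1, an abundant ubiquitin hydrolase of neurons, was at 43.5 ± 2.23 CPM in Hcy and 40.8 ± 7.56 CPM in Veh, and its groups overlapped. The sum was 198 to 207 CPM in Hcy and 167 to 186 CPM in Veh, so that it moved with the group. Besides Snap25, Syp, Rbfox3, Nefl and Gad2, the markers Slc17a6, Slc32a1, Elavl4 and Celf4 had 0 counts in every library. What part neurons had in the levels of the 7 genes was not tested beyond these values.

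**Figure D5:**
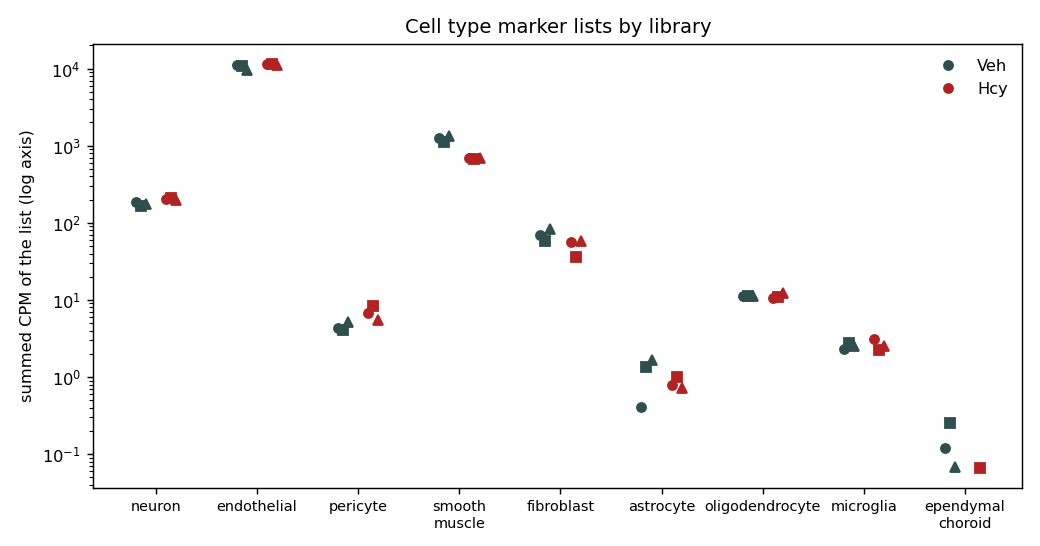
Summed CPM of the marker lists of 9 cell types in each library, on a log10 axis. Points are libraries, with circle, square and triangle for replicates 1, 2 and 3, and libraries with a sum of 0 (ependymal and choroid markers in Hcy replicates 1 and 3) are not drawn. Smooth muscle markers lie at 673 to 702 CPM in Hcy and 1120 to 1348 CPM in Veh, and endothelial markers at 9618 to 11408 CPM over all libraries.

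Markers of the vessel wall moved with the groups as well. The 4 smooth muscle markers summed to 673 to 702 CPM in Hcy and 1120 to 1348 CPM in Veh. All 4 were lower in Hcy, as were 7749 of all 14603 tested genes, and 3 of them at the adjusted threshold, against 1.01% of all genes. Among these were Tagln (log2 fold change -0.88, adjusted p = 0.000801 in edgeR) and Cnn1 (-1.39 on the log2 scale, adjusted p = 0.00177 in edgeR), which was called. The 9 pericyte markers summed to 5.43 to 8.26 CPM in Hcy and 4.08 to 5.12 CPM in Veh, 7 of 9 higher and none past the threshold. Fibroblast markers summed to 35.7 to 57.8 CPM and 57.5 to 83.9 CPM, and endothelial markers to 10989 to 11408 CPM and 9618 to 11059 CPM, with overlapping groups. Astrocyte markers stood at 0.716 to 1.01 CPM in Hcy and 0.416 to 1.66 CPM in Veh with Slc1a2 and Aqp4 at 0, microglia markers at 2.22 to 3.09 and 2.32 to 2.74 CPM with P2ry12 and Cx3cr1 at 0, and oligodendrocyte markers at 10.6 to 12.4 and 11.3 to 11.4 CPM with Mag at 0. Ependymal and choroid markers had at most 0.255 CPM. The share of these cell types in the difference seen for the 7 genes was not tested.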

How the data were processed

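The authors deposited raw read counts per gene, together with gene positions and gene lengths, for 6 RNA-seq libraries. Per the labels, their notes name fastp, HISAT2 2.2.1, StringTie 2.2.3, Cufflinks, featureCounts 2.0.6 and DESeq2 1.42.0, and mRatBN7.2 as genome. The table itself names no build, and its positions, printed as listed, should not be read as mRatBN7.2, since they may belong to another assembly. Whether counting used the strand is not given in the sources used here. A deposited table of the authors' own comparison (normalized signal, fold changes, p-values) was not used.

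A gene was kept if its counts summed to 10 or more. Counts were scaled with TMM (factors 0.977 to 1.02) and compared with edgeR 4.0.16 in R 4.3.3 (quasi-likelihood test, group as the only term, Benjamini-Hochberg adjustment over 14603 genes). Calls required an adjusted p no larger than 0.05 and a log2 fold change of 1 or more in size. CPM were computed from the deposited counts. Fold changes used a prior count of 0.125, and likeness a prior count of 2 over genes with at least 60 counts. Against a group at or under 3 counts per library a lower bound is given. This bound sets the Hcy mean against the floor of 3 counts and includes neither counting error nor the spread between Hcy libraries. On simulated counts with 200 changed genes (log2 fold change 2), edgeR recovered 200 with 1 wrong call among 14407 genes.

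The 7 genes and all gene lists were chosen with earlier results of these data known. From each list the text names the 3 genes with the highest level per kb in Veh, the gene with the smallest p and every gene past the threshold. Others, such as Agrn, Rest, Stmn1, Gria2, Sv2a and Syt1, were named after their values were seen. For each gene the tested neighbour on either side and the 3 nearest profiles are named or counted. Some results under these rules are not reported here. Alternatives were DESeq2, DESeq2 size factors, library totals, other count minimums, a prior count of 2, no fold threshold, the replicate block and leaving out each library.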

Additional observations from a re-analysis of the deposited data

How the results depend on the processing

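The 7 genes were chosen for their difference in these libraries, so their calls under other settings are a record and no sign of stability. Cpe, Nsg1, Fxyd6, Prss12 and Ncam2 were called under each of 13 alternatives, and Nrcam and Tubb3 under none. No log2 fold change of the 7 genes changed sign. That of Ncam2 ranged from 3.28 with a prior count of 2 to 5.45 without Veh replicate 2, that of Nrcam from 0.86 to 1.28 and that of Tubb3 from 0.19 to 0.44. Over all genes, 71 calls became 109 without the count minimum, 341 without the fold threshold, and 39 to 112 on leaving out each library (39 without Hcy replicate 1 or 2, 46 without Hcy replicate 3, 112 without Veh replicate 3). DESeq2 called 100, of which 70 were shared. Of the listed genes 0 were called, against 1 (Ank2) with DESeq2 and without the count minimum, 5 without the fold threshold, and 0 to 1 on leaving out each library (Rtn1, without Hcy replicate 3 or Veh replicate 1). The count at the adjusted p alone, an analysis added after seeing the data, was 5, against 9 with DESeq2 and 1 to 14 on leaving out each library (14 without Veh replicate 3, and 1, Serpine2, without Hcy replicate 1 or 2). DESeq2 added Agrn, Ank2, Stmn1 and Tubb2a to the 5, and leaving out Veh replicate 3 added Agrn, Alcam, Atp1b3, Cadm1, Rest, Stmn1, Tuba1a, Tuba1b and Tubb5. Deviations of libraries with the same number correlated at 0.0237, 0.166 and 0.0581, not all above 0.1, so the numbers were not taken as pairs. With the replicate block 82 genes were called, 63 of them shared, 0 of the listed genes were called, and 4 passed the adjusted p alone, with Crmp1 lost. The causes of these shifts were not tested. Prss12, Nrcam and Ncam2 had under 80 counts per library, with 3 libraries per group. Counting error alone gives their levels a coefficient of variation of 12.5% or more.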
